A study of Mus musculus with 30 samples.

Results

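The 8 genes described here are the myogenic regulatory factors Myod1, Myog, Myf5 and Myf6 and the satellite cell genes Pax7, Cdh15, Calcr and Megf10, taken as a named list and matched by gene identifier to the deposited count table. All 8 were found among its 33076 genes. They were measured by bulk RNA-seq in diaphragm of 15 male mice. The disease modelled, spinal and bulbar muscular atrophy (SBMA), is an inherited polyglutamine disorder that weakens muscle and affects motor neurons. SBMA mice carried the transgene that their sample labels spell BACfxR121. Control mice carried HSA-Cre together with a transgene that is taken here to be that same one, although their sample labels spell it differently, and were muscle-rescued littermates. HSA-Cre is driven by the skeletal actin promoter, which is active in differentiated muscle, so the controls are not transgene-free animals, and whether their satellite cells had recombined was not tested. Each mouse gave a perisynaptic library, from diaphragm that holds neuromuscular junctions, and an extrasynaptic library, from diaphragm without them. In each region there were 4 SBMA and 4 control mice at 26 weeks, and 4 SBMA and 3 control mice at 15 weeks, which makes 8 groups and 30 libraries.

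Satellite cells are the stem cells of skeletal muscle and lie between a fibre and its basal lamina. PAX7 marks them while they are quiescent. When they are activated, MYF5 and MYOD commit their progeny to the muscle lineage, myogenin drives terminal differentiation and fusion, and MRF4, the product of Myf6, is kept up in mature fibres. The 4 factors are basic helix-loop-helix proteins that bind the E-box, a short palindromic DNA motif, as dimers with E proteins. Myogenin is also made by the nuclei of adult fibres that have lost their nerve, where it drives acetylcholine receptor genes.

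In GENCODE vM21 (GRCm38) none of the 8 genes shared exons with another annotated gene. Pax7 lay at chr4:139737062-139833528 on the minus strand, Cdh15 at chr8:122847966-122867397 on the plus strand and Calcr at chr6:3685680-3764714 on the minus strand. Myod1 lay at chr7:46376474-46379099 and Myog at chr1:134289989-134292548, both on the plus strand. Myf5 and Myf6 are neighbours on the minus strand of chromosome 10, at chr10:107482908-107486134 and chr10:107492853-107494737, with 6718 bases between them.

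RefSeq's promoter table held 5 of the 8 genes, Myog, Myf5, Pax7, Cdh15 and Calcr. The sequences below are the 250 bases before the annotated start in GRCm38.p6, 5′ to 3′ on the gene's strand, shown because each of these genes was called higher in SBMA mice at 26 weeks in at least 1 region and they differ in whether an E-box lies next to the start. Capitals mark each match to CANNTG, which reads as the same motif on both strands.
Myog, chr1:134289754-134290003, plus strand: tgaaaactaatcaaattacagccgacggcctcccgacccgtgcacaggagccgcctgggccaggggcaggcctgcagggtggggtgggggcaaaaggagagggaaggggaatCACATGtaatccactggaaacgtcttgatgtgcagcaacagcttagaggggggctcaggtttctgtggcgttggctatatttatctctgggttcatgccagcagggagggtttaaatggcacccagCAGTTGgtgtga
Cdh15, chr8:122848124-122848373, plus strand: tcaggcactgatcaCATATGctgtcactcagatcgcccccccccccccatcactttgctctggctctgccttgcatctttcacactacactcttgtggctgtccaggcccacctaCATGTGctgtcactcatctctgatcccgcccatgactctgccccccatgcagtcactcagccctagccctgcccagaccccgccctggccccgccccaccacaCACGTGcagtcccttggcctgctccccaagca
Myf5, chr10:107486135-107486384, minus strand: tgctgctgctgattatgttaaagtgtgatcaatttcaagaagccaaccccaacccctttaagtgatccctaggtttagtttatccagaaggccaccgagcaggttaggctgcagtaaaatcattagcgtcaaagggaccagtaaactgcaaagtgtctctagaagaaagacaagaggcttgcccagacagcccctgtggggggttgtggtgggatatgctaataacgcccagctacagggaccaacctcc
Pax7, chr4:139832969-139833218, minus strand: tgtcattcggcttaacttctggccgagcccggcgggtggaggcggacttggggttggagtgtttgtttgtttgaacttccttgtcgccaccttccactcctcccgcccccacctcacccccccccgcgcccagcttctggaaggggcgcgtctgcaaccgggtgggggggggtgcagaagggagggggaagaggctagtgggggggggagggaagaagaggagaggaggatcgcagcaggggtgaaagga
The Myog window held 2 matches, CACATG at 138 and CAGTTG at 12 bases before the start. The Cdh15 window held 3, at 236, 135 and 32 bases. No match was present in these windows of Myf5 and Pax7, and of the 2 Calcr windows 1 held a single CACCTG. The RefSeq starts of Myog, Cdh15 and Pax7 lie inside the GENCODE genes. The Cdh15 and Pax7 windows lie inside them as a whole, so the Cdh15 matches fall within the annotated gene. Of the Myog matches, CAGTTG falls within the annotated gene and CACATG before it. The Calcr window without a match also lies inside its gene. At least 1 match is present in 66.2% of the 32851 windows of this length in the table and at least 2 in 31.8%, so a match is common and describes the letters alone.

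Total counts per library ranged from 16280873 to 34694446. All 8 genes passed the filter on low counts in every comparison, and the lowest count of any of them in a library was 7, for Calcr. Levels are given as CPM, the counts of a gene scaled to the library total after TMM normalisation, and differences as log2 fold changes with their standard error (SE) from the quasi-likelihood fit of edgeR. A gene is called where its Benjamini-Hochberg adjusted p over all genes tested is under 0.05. The tissue label fitted the markers: the 12 muscle fibre markers summed to 61165 to 154186 CPM per library. In bulk RNA, more cells of a type and more of a transcript per cell cannot be told apart.

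Per kilobase of exon, Myf6 was the most abundant of the 8 in every group and Calcr the least. In SBMA perisynaptic libraries at 26 weeks the means were 55.4 CPM per kilobase for Myf6, 8.30 for Cdh15, 6.60 for Myod1, 5.47 for Myog, 1.98 for Myf5, 1.24 for Pax7, 0.682 for Megf10 and 0.403 for Calcr. In the matching controls they were 40.0 for Myf6, 6.38 for Cdh15, 8.22 for Myod1, 3.80 for Myog, 1.12 for Myf5, 0.714 for Pax7, 0.430 for Megf10 and 0.286 for Calcr. Cdh15 and Myod1 stood next to each other in all 8 groups, Cdh15 above in SBMA mice of 26 weeks and Myod1 above in the other groups, and their ranges overlapped in 7. Myog followed, then Myf5, Pax7 and Megf10. Myf6 did not overlap with the gene next to it in any group, nor did Myog with Myf5. Myf5 and Pax7 overlapped in 4 of 8 groups, Pax7 and Megf10 in 4 and Megf10 and Calcr in 1.

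**Figure D1:**
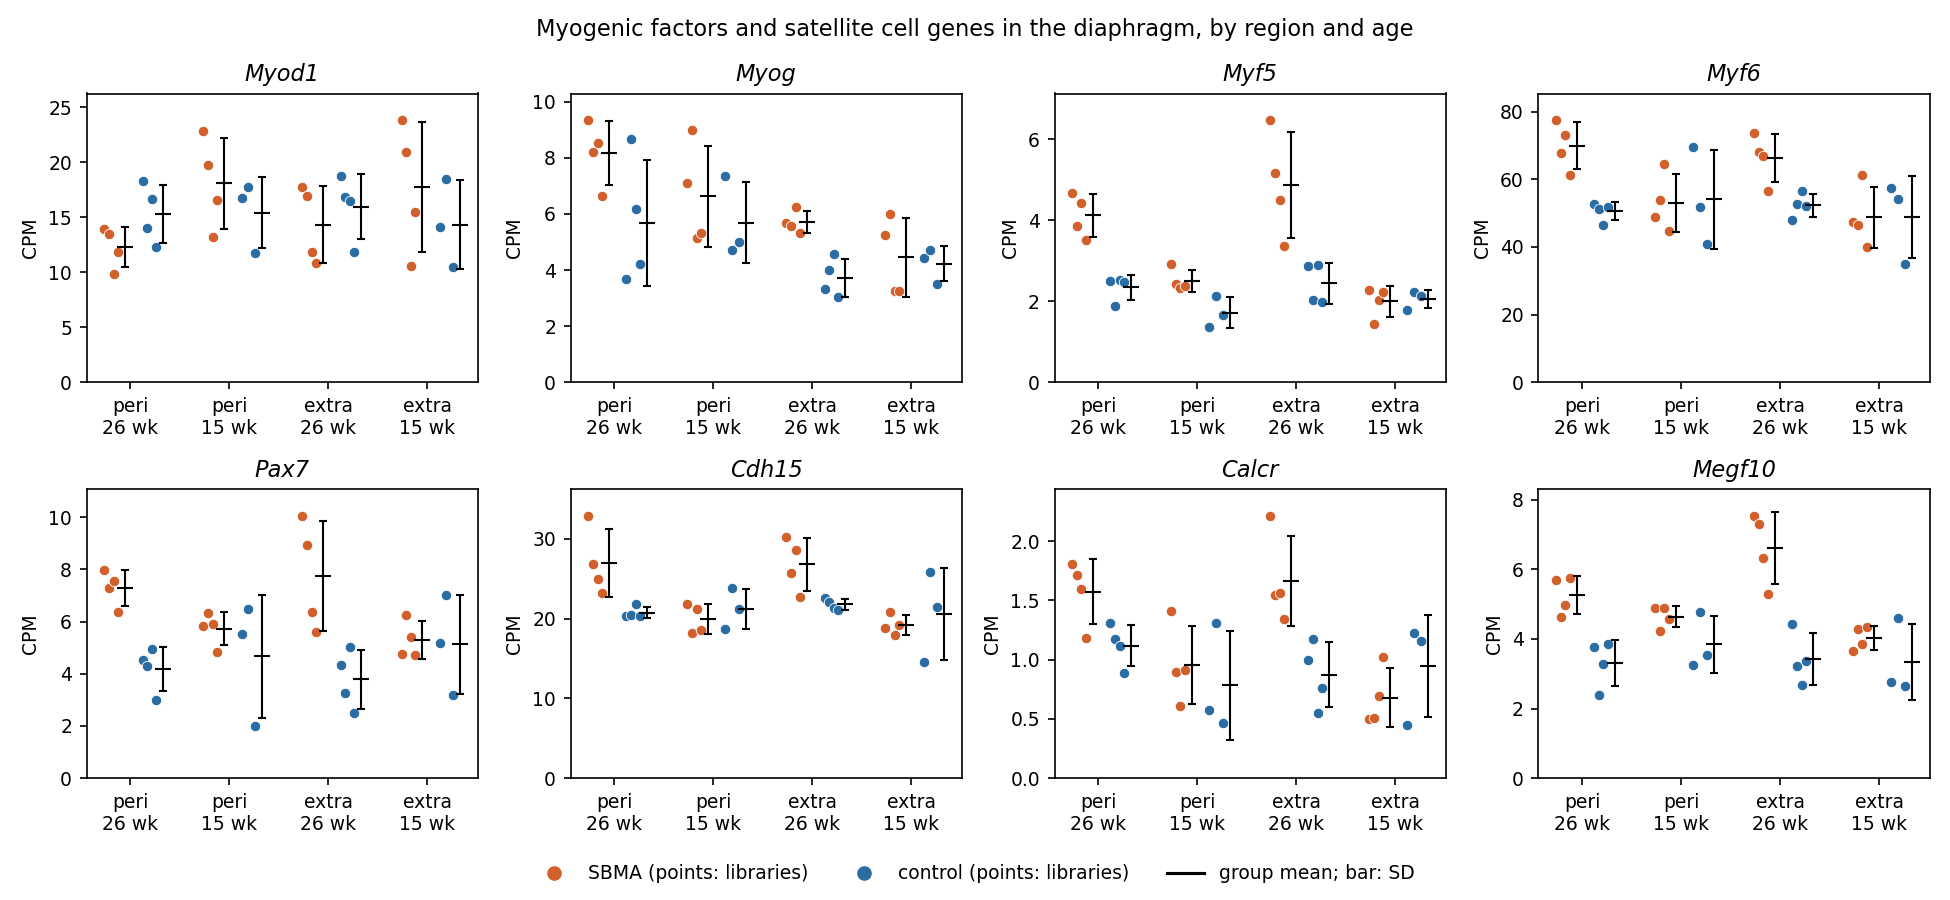
Each panel plots the CPM of a gene (vertical axis) in every library, by region and age; points are libraries, black marks group means and bars the SD. At 26 weeks every SBMA library lies above every control library for Pax7, Myf5, Myf6, Cdh15 and Megf10 in both regions, and the genotypes overlap for Myod1.

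At 26 weeks 5 of the 8 genes rose in SBMA in each region and none fell. In perisynaptic diaphragm these were Pax7, Myf5, Myf6, Cdh15 and Megf10, and in extrasynaptic diaphragm Pax7, Myf5, Myog, Calcr and Megf10. Of all genes tested, 8.04% were called higher and 5.97% lower in perisynaptic libraries, and 16.1% were called in each direction in extrasynaptic libraries. The median log2 fold change of the 8 was 0.52 in the perisynaptic and 0.78 in the extrasynaptic region, beside −0.02 and −0.03 for all genes tested. In the perisynaptic region every SBMA library was above every control library for 5 of the 8 genes, against 9.97% of all genes, and in the extrasynaptic region for 7, against 15.4%. Myod1 overlapped between genotypes in both regions.

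Pax7, the transcription factor that defines satellite cells, measured 7.98, 7.27, 7.55 and 6.36 CPM in the 4 SBMA and 4.52, 4.28, 4.94 and 3.00 CPM in the 4 control perisynaptic libraries at 26 weeks. In extrasynaptic libraries it measured 10.1, 8.93, 6.35 and 5.62 CPM in SBMA and 4.34, 3.26, 5.02 and 2.51 CPM in control mice. All SBMA libraries lay above all control libraries in both regions, most widely in the first pair of extrasynaptic SBMA mice. The log2 fold changes were 0.81 ± 0.247 (adjusted p = 0.0405) and 1.04 ± 0.253 (adjusted p = 0.00562). The perisynaptic call was lost when any of the 4 SBMA mice, or control replicate 1 or 4, was left out, with fold changes of 0.68 to 0.90 and an adjusted p of up to 0.0979, while the extrasynaptic call was kept without any mouse.

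Megf10 encodes a transmembrane receptor with epidermal growth factor repeats of satellite cells and their progeny, and lies at chr18:57133090-57297467 on the plus strand. It measured 5.71, 4.64, 4.98 and 5.74 CPM in SBMA and 3.76, 2.40, 3.27 and 3.84 CPM in control perisynaptic libraries. The extrasynaptic values were 7.54, 7.32, 6.32 and 5.28 CPM in SBMA and 4.43, 3.21, 2.67 and 3.37 CPM in control mice. The genotypes did not overlap in either region. Megf10 rose by 0.67 ± 0.162 (adjusted p = 0.0116) and 0.95 ± 0.186 (adjusted p = 0.00126), and both calls were kept whichever mouse was left out.

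Calcr, the calcitonin receptor of quiescent satellite cells, rested on few reads. It measured 1.81, 1.71, 1.60 and 1.18 CPM in SBMA and 1.31, 1.17, 1.12 and 0.884 CPM in control perisynaptic libraries, which overlapped. Extrasynaptic values were 2.22, 1.55, 1.56 and 1.34 CPM in SBMA and 1.00, 1.18, 0.552 and 0.759 CPM in control mice, with no overlap. The fold change was 0.50 ± 0.297 (adjusted p = 0.29) in the perisynaptic region and 0.93 ± 0.317 (adjusted p = 0.0348) in the extrasynaptic region. The extrasynaptic call was lost without SBMA replicate 1, 2 or 3 or control replicate 1, 3 or 4, with fold changes of 0.77 to 1.11 and an adjusted p of up to 0.103.

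Cdh15 encodes M-cadherin, which joins satellite cells to the fibre. It measured 32.9, 26.9, 24.9 and 23.2 CPM in SBMA and 20.3, 20.4, 21.8 and 20.4 CPM in control perisynaptic libraries. In extrasynaptic libraries SBMA mice had 30.3, 25.8, 28.6 and 22.7 CPM and control mice 22.6, 22.1, 21.3 and 21.1 CPM. The control libraries were tightly grouped and all lay below the SBMA libraries, the lowest extrasynaptic SBMA library by a narrow margin. The fold changes were 0.39 ± 0.114 (adjusted p = 0.0326) and 0.30 ± 0.134 (adjusted p = 0.0968). A block of replicate numbers ended the perisynaptic call. The perisynaptic call was lost without SBMA replicate 1 or 2 or control replicate 1 or 4 (0.28 to 0.46 over all 8 mice left out, adjusted p up to 0.103), without the filter on low counts (0.40, adjusted p = 0.058) and in a fit of the compared groups alone (0.39, adjusted p = 0.0697).

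Myf5, a determination factor that quiescent satellite cells already transcribe, measured 4.68, 3.84, 4.43 and 3.51 CPM in SBMA and 2.50, 1.89, 2.51 and 2.47 CPM in control perisynaptic libraries. Its extrasynaptic levels were 6.48, 5.15, 4.50 and 3.35 CPM in SBMA and 2.86, 2.04, 2.90 and 1.98 CPM in control mice. No SBMA library was as low as a control library. Myf5 rose by 0.82 ± 0.165 (adjusted p = 0.00371) and 1.00 ± 0.206 (adjusted p = 0.00193), and no single mouse decided either call.

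Myod1, the determination factor of activated satellite cells, passed the test in neither region. It measured 13.9, 13.5, 9.88 and 11.8 CPM in SBMA and 18.3, 14.0, 16.6 and 12.3 CPM in control perisynaptic libraries. The extrasynaptic values were 17.7, 16.9, 11.8 and 10.8 CPM in SBMA and 18.8, 16.8, 16.5 and 11.8 CPM in control mice. The genotypes overlapped in both regions. Its fold changes, −0.31 ± 0.184 (adjusted p = 0.289) and −0.16 ± 0.243 (adjusted p = 0.657), both lay below 0, and the extrasynaptic value was 0.05 with scaling by total counts.

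Myog, the differentiation factor that fibres also make after denervation, measured 9.36, 8.22, 8.53 and 6.62 CPM in SBMA and 3.69, 8.66, 6.18 and 4.20 CPM in control perisynaptic libraries. Control replicate 2 there was higher than 3 of the 4 SBMA libraries. In extrasynaptic libraries SBMA mice had 5.67, 5.57, 6.26 and 5.32 CPM and control mice 3.34, 3.98, 4.56 and 3.04 CPM, with no overlap. The fold change was 0.54 ± 0.253 (adjusted p = 0.17) in the perisynaptic and 0.62 ± 0.196 (adjusted p = 0.0252) in the extrasynaptic region. The perisynaptic value passed without control replicate 2 (0.81, adjusted p = 0.0256) and with total-count scaling (0.79, adjusted p = 0.0373), and the extrasynaptic call was lost without SBMA replicate 3 or control replicate 1 or 4 (adjusted p up to 0.0681).

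Myf6, the factor of mature fibres, measured 77.6, 67.8, 73.2 and 61.2 CPM in SBMA and 52.7, 51.2, 46.6 and 51.7 CPM in control perisynaptic libraries. Extrasynaptic libraries had 73.7, 68.1, 66.9 and 56.5 CPM in SBMA and 48.0, 52.6, 56.5 and 51.9 CPM in control mice. The genotypes were well apart in the perisynaptic region and touched in the extrasynaptic region, where the lowest SBMA library had 56.498 CPM and the highest control library 56.474 CPM. The fold changes were 0.48 ± 0.147 (adjusted p = 0.0407) and 0.34 ± 0.145 (adjusted p = 0.0832). The perisynaptic call did not hold with a block of replicate numbers. The perisynaptic call was lost when SBMA replicate 1, 2 or 3 or control replicate 1, 3 or 4 was left out (0.43 to 0.54, adjusted p up to 0.101), and the extrasynaptic value passed without the filter on low counts (0.37, adjusted p = 0.0454), in a fit of the compared groups alone (0.36, adjusted p = 0.0138) and with total-count scaling (0.56, adjusted p = 0.00817).

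**Figure D2:**
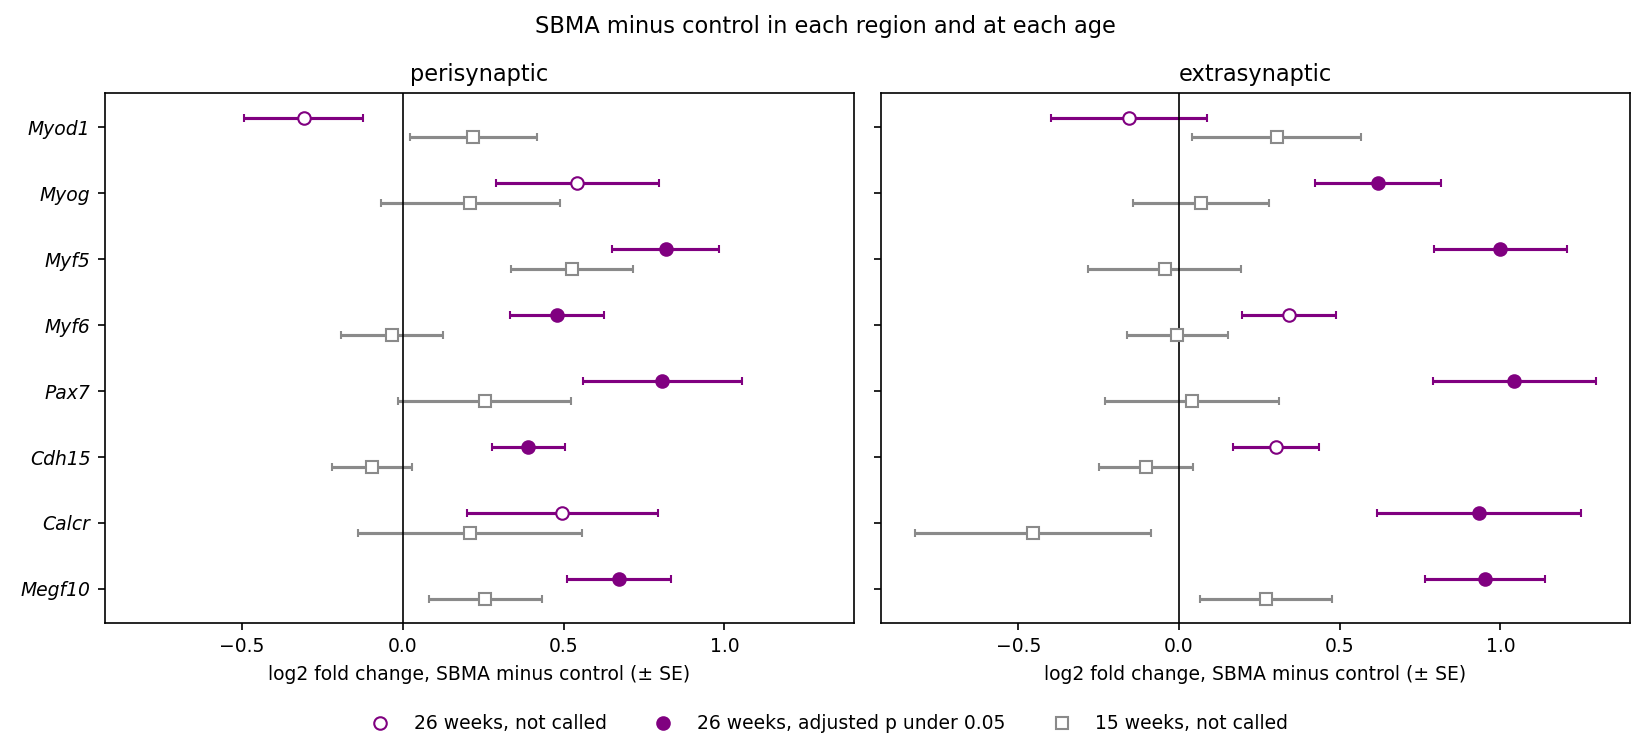
Log2 fold change of SBMA minus control (horizontal axis) for each gene, in perisynaptic (left) and extrasynaptic (right) libraries; points are fitted values, bars the SE, filled points pass the adjusted p of 0.05 and open points do not. At 26 weeks 5 genes pass in each region and Myod1 lies below 0; at 15 weeks no gene passes.

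The mice of 26 weeks fall into 2 runs of consecutive animal numbers with 2 SBMA and 2 control mice each, and the labels do not say what a run stands for. Within the runs the direction of every called gene was kept. In perisynaptic libraries 0 of the 8 were called higher in the lower run, where 0.27% of all genes were, and 1 in the higher run, where 10.2% were. In extrasynaptic libraries 4 were called higher in the lower run, where 11.6% of all genes were, and 1 in the higher run, where 6.16% were. These 4 were not all among the genes called in the fit of all extrasynaptic libraries. Extrasynaptic Pax7 gave 1.33 (adjusted p = 0.00546) in the lower run and 0.72 (adjusted p = 0.216) in the higher run, and extrasynaptic Myf5 1.25 (adjusted p = 0.0132) and 0.73 (adjusted p = 0.149). Extrasynaptic Megf10 passed in both, at 0.97 (adjusted p = 0.0175) and 0.96 (adjusted p = 0.0407), extrasynaptic Myog in neither, at 0.62 (adjusted p = 0.0557) and 0.65 (adjusted p = 0.147), and extrasynaptic Calcr in neither, at 0.78 (adjusted p = 0.113) and 1.15 (adjusted p = 0.0755). Perisynaptic values were 0.95 and 0.69 for Myf5, 0.79 and 0.82 for Pax7, 0.74 and 0.62 for Megf10, 0.48 and 0.48 for Myf6 and 0.55 and 0.22 for Cdh15, and of these Myf6 in the higher run passed (adjusted p = 0.0252).

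With scaling by total counts instead of TMM, the median log2 fold change of all genes at 26 weeks was 0.24 in the perisynaptic and 0.18 in the extrasynaptic region, in place of −0.02 and −0.03. With it 4259 genes were called higher and 383 lower in perisynaptic libraries, in place of 1265 and 939, and 5332 higher and 954 lower in extrasynaptic libraries, in place of 2502 and 2505. Every genotype call at 26 weeks among the 8 genes held under that scaling, with Myf5 at 1.08 and 1.21 and Pax7 at 1.06 and 1.26. These are differences from 0 and not from the moved median.

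At 15 weeks no gene of the 8 was called in edgeR in either region, where 0.21% of all genes passed in perisynaptic and 1.22% in extrasynaptic libraries. At an unadjusted p under 0.05 there was 1 of the 8 in the perisynaptic and 0 in the extrasynaptic region, and DESeq2 called 0 in both. The perisynaptic gene was Myf5, with 2.91, 2.41, 2.32 and 2.37 CPM in SBMA and 1.36, 2.13 and 1.66 CPM in control perisynaptic libraries, which did not overlap. Its fold change was 0.53 ± 0.191 (adjusted p = 0.507), and 6.54% of all genes had every SBMA library above every control library in this comparison. In extrasynaptic libraries Myf5 measured 2.27, 1.44, 2.04 and 2.22 CPM in SBMA and 1.79, 2.23 and 2.13 CPM in control mice, which overlapped, at −0.04 ± 0.238. None of the 8 had every SBMA library above every control library there, against 8.08% of all genes.

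Pax7 at 15 weeks measured 5.82, 6.34, 5.91 and 4.85 CPM in SBMA and 5.51, 6.50 and 2.00 CPM in control perisynaptic libraries. Extrasynaptic libraries had 4.77, 6.26, 5.42 and 4.71 CPM in SBMA and 5.17, 7.00 and 3.19 CPM in control mice. Control replicate 3 was the lowest of all in both of its regions, and the other controls lay within the SBMA range or above it. The fold changes of the genes other than Myf5 at this age lay between −0.10 for Cdh15 and 0.26 for Megf10 in the perisynaptic region. In the extrasynaptic region they lay between −0.45 ± 0.366 for Calcr and 0.30 for Myod1. Scaling by total counts turned the sign of Myf6 in both regions (0.05 and 0.18) and of extrasynaptic Myf5 (0.15) and Cdh15 (0.10).

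With age, Myf5 averaged 4.12 ± 0.536 CPM at 26 weeks and 2.50 ± 0.273 CPM at 15 weeks in SBMA perisynaptic libraries (SD, n = 4 each), and 4.87 ± 1.30 CPM at 26 weeks and 1.99 ± 0.381 CPM at 15 weeks in SBMA extrasynaptic libraries. It rose by 0.73 ± 0.164 (adjusted p = 0.0186) and 1.29 ± 0.207 (adjusted p = 0.00111). Cdh15 rose as well, by 0.45 ± 0.114 (adjusted p = 0.0385) and 0.48 ± 0.134 (adjusted p = 0.0288). In extrasynaptic SBMA libraries Calcr averaged 1.67 ± 0.379 CPM at 26 weeks and 0.680 ± 0.247 CPM at 15 weeks, a rise of 1.28 ± 0.32 (adjusted p = 0.0176), and Megf10 averaged 6.62 ± 1.04 CPM at 26 weeks and 4.03 ± 0.335 CPM at 15 weeks, a rise of 0.71 ± 0.182 (adjusted p = 0.0189). So 2 of the 8 were higher at 26 weeks in perisynaptic SBMA libraries, where 2.35% of all genes were called higher, and 4 in extrasynaptic SBMA libraries, where 6.52% were. Myod1 moved the other way in perisynaptic SBMA libraries, 12.3 ± 1.84 CPM at 26 weeks and 18.1 ± 4.13 CPM at 15 weeks, a difference of −0.54 ± 0.184 that did not pass (adjusted p = 0.122). Age is confounded with the run of animal numbers, so the 2 cannot be told apart.

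The age calls in SBMA mice leaned on single mice apart from extrasynaptic Myf5. Perisynaptic Myf5 lost its call without 26-week replicate 1 or 3 or 15-week replicate 2, 3 or 4 (0.67 to 0.81, adjusted p up to 0.0723), and perisynaptic Cdh15 kept it in 1 of 8 omissions, that of 26-week replicate 4 (adjusted p up to 0.127 in the others). In extrasynaptic libraries Cdh15 kept its call without 26-week replicate 4 or 15-week replicate 2 (adjusted p up to 0.0853 otherwise), Calcr lost it without 26-week replicate 1 or 15-week replicate 1 or 2 (up to 0.0591), and Megf10 without 26-week replicate 1 or 2 or 15-week replicate 1 (up to 0.0591).

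In control mice edgeR called 0 of the 8 and 0 genes (0.0%) of the table with age in either region. At an unadjusted p under 0.05 there were 1 of the 8 in perisynaptic and 0 in extrasynaptic libraries, among 891 and 1036 genes of the table, and DESeq2 called 0 of the 8 among 36 and 54 genes. The control difference for Myf5 was 0.44 ± 0.191 (adjusted p = 0.861) in perisynaptic and 0.24 ± 0.238 (adjusted p = 0.913) in extrasynaptic libraries, and for Pax7 −0.19 ± 0.271 and −0.45 ± 0.277. Whether the genotype difference itself changed with age was tested as an interaction. In edgeR 0 of the 8 passed it in either region, where 0.375% of perisynaptic and 1.73% of extrasynaptic genes did. At an unadjusted p under 0.05 there were 2 and 4 of the 8, and DESeq2 called 0 and 1. The shares named are for the adjusted edgeR calls and not for those counts. The extrasynaptic interaction was 1.04 ± 0.315 for Myf5 (adjusted p = 0.115), 1.39 ± 0.485 for Calcr (adjusted p = 0.171) and 1.00 ± 0.369 for Pax7 (adjusted p = 0.192). Myf5 passed it in DESeq2 (1.06, adjusted p = 0.0462) and in edgeR without SBMA replicate 4 of 26 weeks (1.18, adjusted p = 0.0489). That the genotype difference depended on age was thus not shown for the other 7 genes, and for extrasynaptic Myf5 it depended on the tool and on that mouse.

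Between the regions of a mouse, Myog was higher in the perisynaptic piece in 14 of 15 mice. At 26 weeks it averaged 8.18 ± 1.15 CPM in perisynaptic and 5.70 ± 0.396 CPM in extrasynaptic libraries of SBMA mice, a difference of 0.51 ± 0.127 (adjusted p = 0.0456). At 15 weeks the SBMA means were 6.63 ± 1.80 CPM in perisynaptic and 4.45 ± 1.41 CPM in extrasynaptic libraries, a difference of 0.59 ± 0.134 (adjusted p = 0.0448). Control mice gave differences of 0.56 ± 0.141 (adjusted p = 0.072) at 26 weeks and 0.41 ± 0.161 (adjusted p = 0.463) at 15 weeks. Myog was the single gene of the 8 called in SBMA mice at either age, beside 1.65% of all genes called higher in perisynaptic libraries at 26 weeks and 0.905% at 15 weeks. In control mice edgeR called 0 of the 8 at either age, beside 1.18% of all genes at 26 weeks and 1.16% at 15 weeks; 1 of the 8 had an unadjusted p under 0.05 at each age, and DESeq2 called 0. The SBMA call at 15 weeks was lost without any of the 4 mice (adjusted p of 0.0843 to 0.222), and that at 26 weeks without replicate 1, 2 or 3 (up to 0.321) and in DESeq2. Total-count scaling ended the call at 15 weeks, and a fit without the mouse term ended the calls at both ages. Without SBMA replicate 4 of 26 weeks, Myod1 and Megf10 were called lower in perisynaptic libraries, at −0.31 (adjusted p = 0.0414) and −0.47 (adjusted p = 0.0381).

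Pax7, Myf5, Cdh15, Calcr and Myf6 did not pass between the regions in any group. The perisynaptic piece was the higher in 10 of 15 mice for Pax7 and Myf6, in 9 for Calcr and Megf10, in 7 for Myod1 and Cdh15 and in 6 for Myf5. The region difference of Pax7 was −0.06 ± 0.114 in SBMA and 0.16 ± 0.133 in control mice at 26 weeks, and that of Myf5 −0.22 ± 0.124 in SBMA and −0.05 ± 0.145 in control mice. In edgeR 0 of the 8 had a region difference that depended on genotype at either age. That test called 0 genes (0.0%) of the table at 15 weeks and 2 (0.0124%) at 26 weeks; 1 of the 8 at 15 weeks and 0 at 26 weeks had an unadjusted p under 0.05, and DESeq2 called 0 of the 8 at both.

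**Figure D3:**
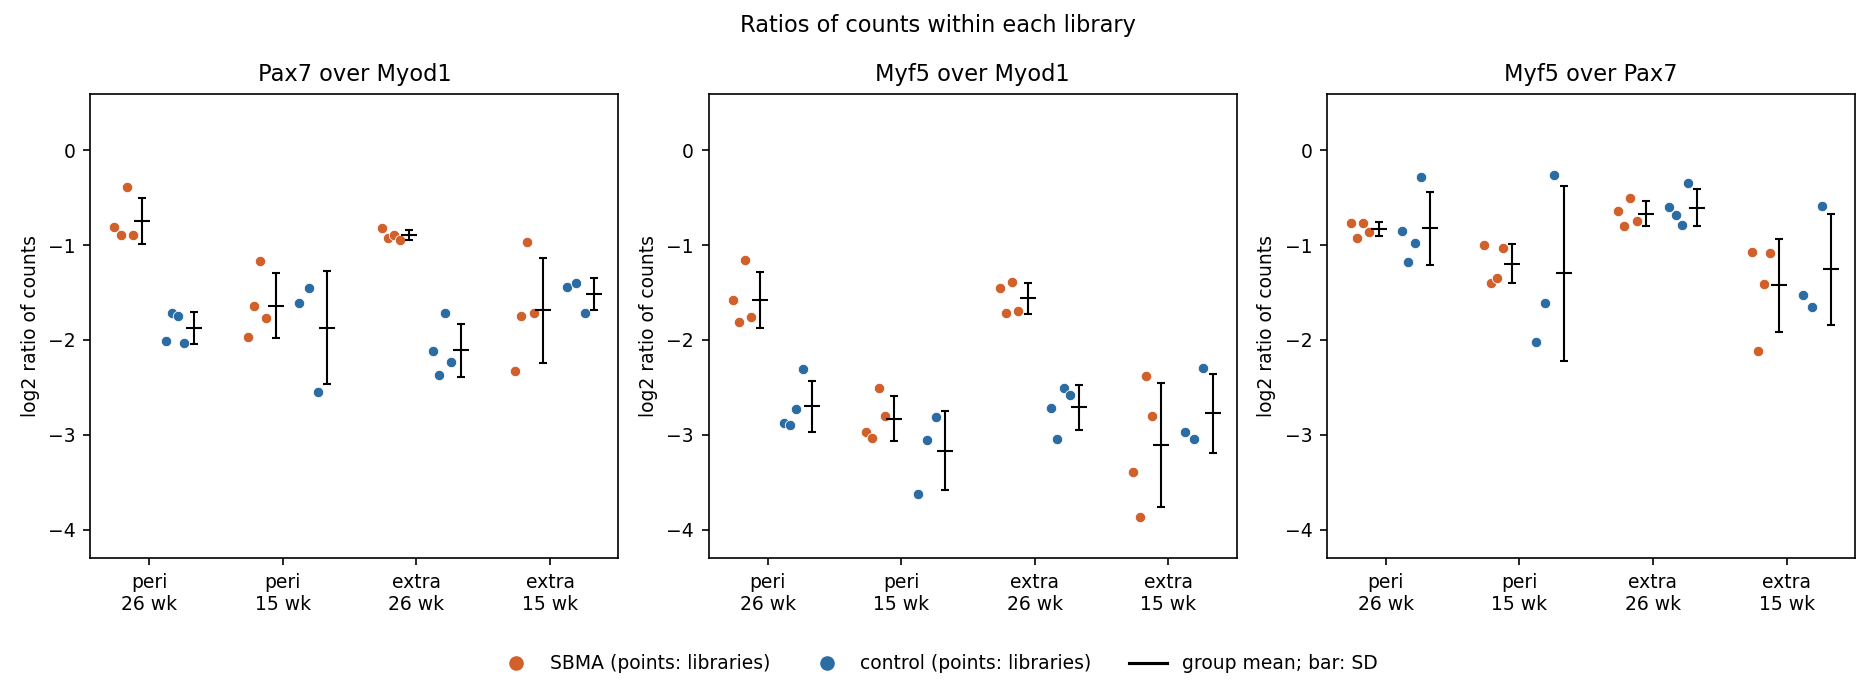
Log2 ratio of the counts of a gene pair within each library (vertical axis), by region and age; points are libraries, black marks means and bars the SD. At 26 weeks the SBMA libraries lie above the control libraries for Pax7 over Myod1 and Myf5 over Myod1 in both regions, while Myf5 over Pax7 overlaps.

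Ratios of counts within a library need no scaling between libraries. At 26 weeks the log2 ratio of Pax7 to Myod1 ranged from −0.90 to −0.39 in SBMA and from −2.03 to −1.71 in control perisynaptic libraries, and from −0.95 to −0.82 in SBMA and from −2.37 to −1.72 in control extrasynaptic libraries. The differences of the means were 1.13 and 1.21, and each had the smallest p that an exact 2-sided permutation test of 4 against 4 can give (0.0286). Myf5 to Myod1 differed by 1.13 and 1.15 with the same p. Myf5 to Pax7 did not separate the genotypes, with differences of −0.01 and −0.07 (exact p = 0.971 and 0.6). Over the 32 ratio tests run, the lowest Benjamini-Hochberg adjusted value was 0.131, so none passes that adjustment.

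Cdh15 to Pax7 was lower in SBMA by the exact test in the perisynaptic region, at −0.45 (exact p = 0.0286), and was −0.75 in the extrasynaptic region (exact p = 0.0571). Myog to Myod1 differed by 0.91 (exact p = 0.0857) and 0.80 (exact p = 0.0286), and Myf6 to Myod1 by 0.78 (exact p = 0.0286) and 0.51 (exact p = 0.0857). At 15 weeks, where 4 against 3 libraries cannot go below 0.0571, the Pax7 to Myod1 ratio differed by 0.23 in perisynaptic and −0.17 in extrasynaptic libraries (exact p = 0.629 each). All p-values of the ratios at 15 weeks were 0.229 or more.

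Other genes of the satellite cell programme did not move as a block. Of 27 tested genes of satellite cells and quiescence, 5 rose and 4 fell in SBMA perisynaptic libraries at 26 weeks, and 5 rose and 5 fell in extrasynaptic libraries, with medians of 0.03 and 0.01. Of all genes tested at that age, 8.04% were called higher and 5.97% lower in perisynaptic libraries, and 16.1% in each direction in extrasynaptic libraries. These shares are to be set beside the counts of each list below. Peg3, an imprinted gene of muscle stem cells that other cells also express, averaged 159 ± 13.1 CPM in SBMA and 33.6 ± 2.72 CPM in control perisynaptic libraries (SD, n = 4 each), a rise of 2.25 ± 0.186 (adjusted p = 2.09e-06), and rose by 2.36 ± 0.107 in extrasynaptic libraries. The syndecan gene Sdc4 rose by 0.66 ± 0.162 in perisynaptic and 0.83 ± 0.158 in extrasynaptic libraries, but not in the perisynaptic fit of the compared groups alone (adjusted p = 0.0547). Within the runs Sdc4 gave 1.03 (adjusted p = 0.145) and 0.30 (adjusted p = 0.0804) in perisynaptic libraries, and its extrasynaptic call was lost in the higher run (0.37, adjusted p = 0.12). The Notch ligand gene Dll1 fell by 0.72 in perisynaptic libraries, and Notch1 fell by 0.42 in extrasynaptic libraries, but neither call held with total-count scaling (−0.48, adjusted p = 0.071, and −0.21, adjusted p = 0.117), and that of Dll1 was lost without SBMA or control replicate 1 (adjusted p = 0.0529 and 0.0546). Dll1 passed in neither run (−0.99, adjusted p = 0.152, and −0.45, adjusted p = 0.188), and Notch1 was lost in the higher run (−0.30, adjusted p = 0.0663). At 15 weeks Peg3 was the single gene of this list called, in extrasynaptic libraries, where 1.22% of all genes were called in either direction. It rose by 0.55 ± 0.112 (adjusted p = 0.0248). This call was lost without SBMA replicate 2, 3 or 4 or control replicate 1 or 3 (0.46 to 0.57, adjusted p up to 0.135). It was also lost in a fit of the compared groups alone (0.55, adjusted p = 0.074).

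Of 29 partners and regulators of the myogenic factors, 1 rose and none fell in perisynaptic and 7 rose and 3 fell in extrasynaptic libraries at 26 weeks. Of all genes, 8.04% were called higher and 5.97% lower in the perisynaptic region, and 16.1% each way in the extrasynaptic region. Tead4, a transcription factor that acts with the Hippo pathway in myoblasts, was the perisynaptic rise, at 0.61 ± 0.177 (adjusted p = 0.0311), and lost its call without SBMA replicate 1, 3 or 4 or control replicate 2 or 4 (0.47 to 0.63, adjusted p up to 0.101), in a fit of the compared groups alone (0.61, adjusted p = 0.0767) and within the lower run (0.57, adjusted p = 0.41). In extrasynaptic libraries the methyltransferase gene Smyd1 rose by 0.59 ± 0.0793, the transcriptional co-activator gene Eya4 by 1.01 ± 0.194 and the retinoblastoma gene Rb1 by 0.63 ± 0.123. The perisynaptic value of Smyd1 was 0.55 (adjusted p = 0.0512), which passed in DESeq2 (0.55, adjusted p = 0.0238), without the filter on low counts (0.56, adjusted p = 0.0432), with a block of runs (0.57, adjusted p = 0.0121) and without control replicate 2, 3 or 4 (0.36 to 0.64, adjusted p up to 0.0439). That of Eya4 was 0.92 (adjusted p = 0.0823), which passed in DESeq2 (0.93, adjusted p = 0.0419), without the filter (0.93, adjusted p = 0.0389), with a block of runs (0.96, adjusted p = 0.00892) and without control replicate 3 (1.20, adjusted p = 0.0385). Dach2, a repressor of Myog in mouse muscle, fell by 1.03 in extrasynaptic libraries (adjusted p = 0.0021), a call lost in the lower run (−0.62, adjusted p = 0.0888). Its perisynaptic value was −1.17 ± 0.409 (adjusted p = 0.0703), which passed without control replicate 2 (−1.47, adjusted p = 0.00443) and in DESeq2 (−1.16, adjusted p = 0.0277).

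Among 16 genes listed for the denervation response, 4 rose and none fell in perisynaptic libraries, and among the 15 tested in extrasynaptic libraries 6 rose and 2 fell. They include Myog itself, and Dach2 and Hdac4, which are also on the list of partners and regulators. The fall of Dach2, the repressor of Myog, is 1 of the 2 extrasynaptic falls and is not that of a myogenin target. The medians of the list were 0.50 and 0.56. The acetylcholine receptor subunit gene Chrna1 averaged 104 ± 14.7 CPM in SBMA and 42.0 ± 5.20 CPM in control perisynaptic libraries, and 63.3 ± 6.04 CPM in SBMA and 12.9 ± 2.66 CPM in control extrasynaptic libraries, rises of 1.31 ± 0.153 and 2.30 ± 0.171. Chrnb1 rose by 1.53 ± 0.141 and 1.86 ± 0.134, and the receptor kinase gene Musk by 1.41 ± 0.285 in extrasynaptic libraries. Chrna1 had already risen at 15 weeks in extrasynaptic libraries, by 1.45 ± 0.187 (adjusted p = 0.00114). Myog was at 0.07 ± 0.212 in the same comparison (adjusted p = 0.92), and a link between the 2 genes was not tested. Fbxo32 was at −0.54 (adjusted p = 0.0794), Trim63 at −0.87 (adjusted p = 0.087) and Musk at 1.06 (adjusted p = 0.126) there. DESeq2 called Fbxo32 and Trim63 lower (adjusted p = 0.0185 and 0.0127). Without the filter on low counts Trim63 was called lower and Musk higher (adjusted p = 0.0146 and 0.0153). Within the lower run the perisynaptic value of Chrna1 was 1.36 (adjusted p = 0.0532). Between the regions of control mice at 26 weeks Chrna1 was higher in perisynaptic libraries by 1.71 ± 0.109.

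Of the differentiation and fusion genes, 4 of 22 tested rose and 2 fell in perisynaptic libraries, and 5 of 21 rose and 5 fell in extrasynaptic libraries, with medians of 0.12 and 0.09. Myh8, the perinatal myosin heavy chain, averaged 20.9 ± 10.9 CPM in SBMA and 4.03 ± 0.344 CPM in control perisynaptic libraries and rose by 2.39 ± 0.27, and by 2.38 ± 0.172 in extrasynaptic libraries. Stab2, a scavenger receptor that takes part in myoblast fusion, rose by 1.85 ± 0.213 and 1.72 ± 0.14, and the neural cell adhesion gene Ncam1 by 1.35 ± 0.206 and 1.504 ± 0.185. Within the lower run the perisynaptic value of Myh8 was 1.75 and did not pass (adjusted p = 0.0527). The imprinted RNA gene H19 fell by 1.47 in perisynaptic libraries. At 15 weeks Cdkn1a was called lower in extrasynaptic libraries (−0.92, adjusted p = 0.00212), where 1.22% of all genes were called in either direction. Stab2 (0.90, adjusted p = 0.00772) and Myh8 (0.95, adjusted p = 0.0216) were called higher there. The Stab2 call was lost in a fit of the compared groups alone (adjusted p = 0.0506). Myh8 lost its call without SBMA replicate 1 or control replicate 1 or 3 (adjusted p up to 0.129).

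Of the cell cycle genes 1 of 21 tested rose and 2 fell in perisynaptic libraries and 1 of 22 rose and 3 fell in extrasynaptic libraries. Cenpf, a kinetochore gene, rose by 1.58 ± 0.385 in perisynaptic libraries, at a low level of 0.866 ± 0.258 CPM in SBMA and 0.287 ± 0.0941 CPM in control mice. Birc5, which encodes survivin, rose by 1.11 ± 0.408 in extrasynaptic libraries (adjusted p = 0.0479), a call lost in DESeq2 (1.15, adjusted p = 0.0719), without the filter (1.14, adjusted p = 0.0838), with a block of runs (1.12, adjusted p = 0.0574) and without SBMA replicate 1, 2 or 3 or control replicate 1, 2 or 3 (0.83 to 1.23, adjusted p up to 0.169). The replication helicase gene Mcm2 fell by 0.45 and 0.62 and the mitotic kinase gene Aurka by 1.35 and 0.98. Aurka passed in neither run in perisynaptic libraries (−1.78, adjusted p = 0.141, and −0.97, adjusted p = 0.105), nor did Cenpf (1.73, adjusted p = 0.208, and 1.41, adjusted p = 0.0857), and the extrasynaptic call of Aurka was lost in the higher run (−0.58, adjusted p = 0.201). The perisynaptic call of Mcm2 was lost without SBMA replicate 1, 2 or 4 or control replicate 3 (adjusted p up to 0.0596), without the filter (−0.44, adjusted p = 0.0608), within both runs (adjusted p = 0.349 and 0.0656) and with total-count scaling (−0.20, adjusted p = 0.26). Mki67, the proliferation marker, averaged 2.75 ± 0.483 CPM in SBMA and 2.05 ± 0.532 CPM in control perisynaptic libraries.

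**Figure D4:**
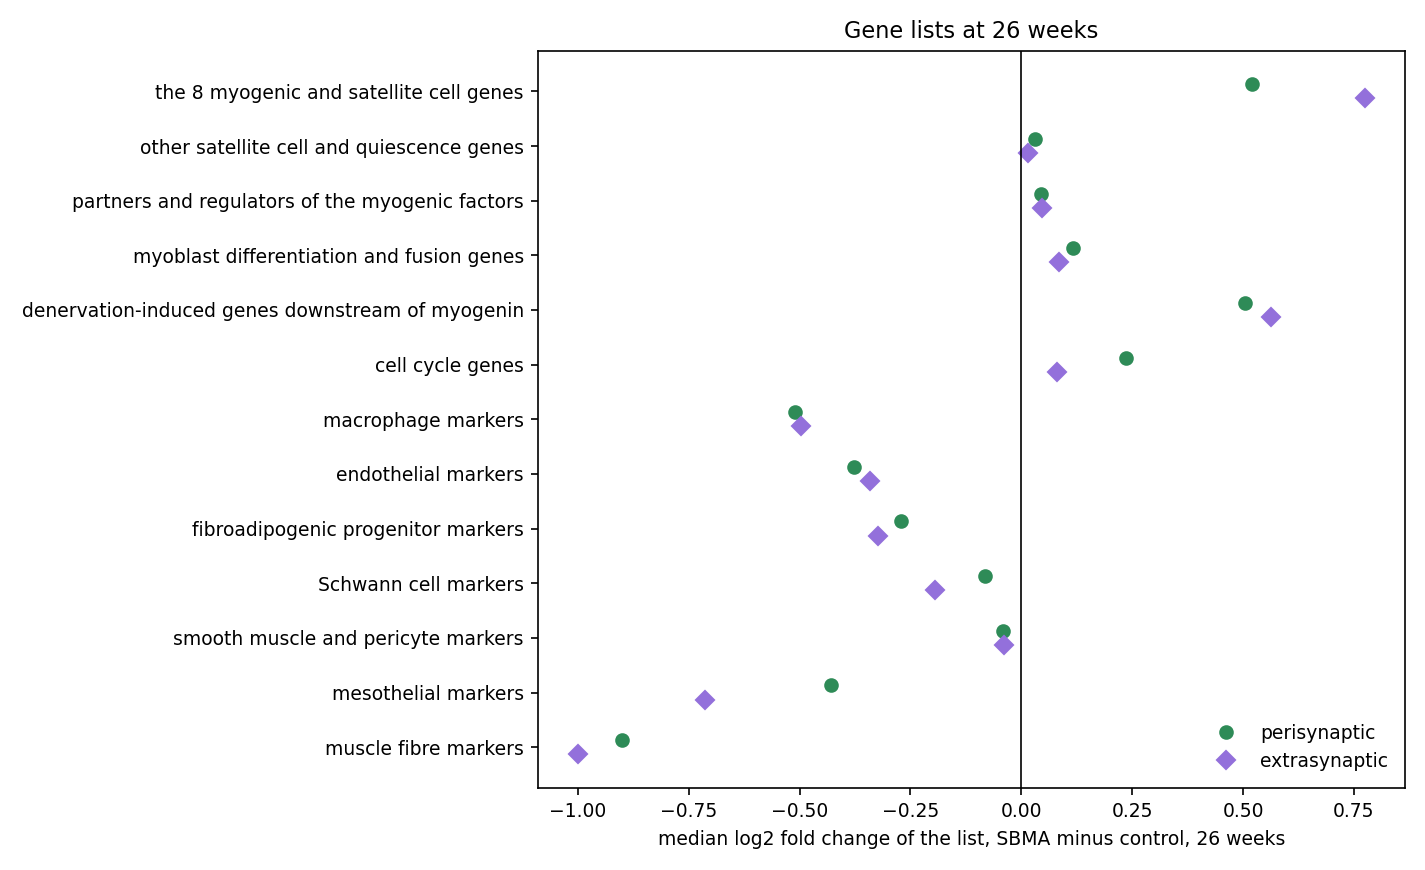
Median log2 fold change of SBMA minus control at 26 weeks (horizontal axis) for the 8 genes and for each gene list, in perisynaptic (circles) and extrasynaptic (diamonds) libraries. The 8 genes have medians of 0.52 and 0.78 and the muscle fibre markers −0.90 and −1.0.

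Markers of other cell types moved with genotype at 26 weeks, and their part in the results above was not tested. Over all genes tested, 8.04% were called higher and 5.97% lower in perisynaptic libraries, and 16.1% in each direction in extrasynaptic libraries. Of 12 muscle fibre markers none rose and 10 fell in each region, with sums of 61165 to 74042 CPM in SBMA and 123530 to 142312 CPM in control perisynaptic libraries, and of 67839 to 77863 CPM in SBMA and 131310 to 144540 CPM in control extrasynaptic libraries. Of 10 macrophage markers 1 fell in perisynaptic and 7 in extrasynaptic libraries, with sums of 205 to 300.3 CPM in SBMA and 296 to 413 CPM in control perisynaptic libraries, and of 203 to 235 CPM in SBMA and 291 to 406 CPM in control extrasynaptic libraries. Of 10 endothelial markers 3 fell in perisynaptic and 5 in extrasynaptic libraries, with sums of 539 to 587 CPM in SBMA and 640.1 to 1037 CPM in control perisynaptic libraries, and of 541 to 612 CPM in SBMA and 672 to 907 CPM in control extrasynaptic libraries. None of the genes on these 3 lists was at 0 in all libraries of a group. At 15 weeks the muscle fibre markers already summed to 92638 to 107284 CPM in SBMA and 135107 to 143701 CPM in control perisynaptic libraries. Their extrasynaptic sums at that age were 90973 to 105993 CPM in SBMA and 137744 to 154186 CPM in control mice.

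Of 12 fibroadipogenic progenitor markers 2 fell in perisynaptic and 6 in extrasynaptic libraries, and their sums overlapped between genotypes, at 2907 to 4102 CPM in SBMA and 3630 to 5141 CPM in control perisynaptic libraries. Of 8 mesothelial markers none passed in perisynaptic and 4 fell in extrasynaptic libraries, where they summed to 101 to 282 CPM in SBMA and 299 to 340 CPM in control mice. Of 10 Schwann cell markers 1 rose in perisynaptic libraries, and 1 rose and 1 fell in extrasynaptic libraries, and Schwann sums overlapped between genotypes. Of 10 smooth muscle and pericyte markers 1 rose and 1 fell in perisynaptic libraries, and 2 rose and 2 fell in extrasynaptic libraries. Their medians were both −0.04, but their sums were higher in SBMA, at 5405 to 6634 CPM in SBMA and 4761 to 5448 CPM in control perisynaptic libraries, which overlapped, and at 5339 to 6410 CPM in SBMA and 4851 to 5232 CPM in control extrasynaptic libraries, which did not. The sums include the desmin gene Des, which is not specific to these cells. The part of single genes in the sums was not tested. None of the 6 adipocyte markers passed in either region, and of the T and B cell markers 1 of 6 tested fell in perisynaptic and none of 5 in extrasynaptic libraries. None of these lists had a median above 0.19, which was that of the adipocyte markers in extrasynaptic libraries.

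Across the 30 libraries of 15 mice, which share animals and groups, the Pearson correlation of log2 CPM was highest between Myf5 and Calcr (0.763), Cdh15 and Calcr (0.759) and Myf5 and Cdh15 (0.751) among the 8 genes. Myod1 correlated with the other 7 at −0.17 to 0.23, and Myog with Pax7 at 0.531. Among all other genes of the joint fit, the pattern most like Myf5 was that of Pvr (0.904), most like Pax7 that of Arhgef2 (0.866), most like Myf6 that of Cited2 (0.875) and most like Megf10 that of Smarcal1 (0.875). Cdh15 was most like Klhl40 (0.862), Calcr most like Srpk3 (0.791), Myog most like Gm20485 (0.831) and Myod1 most like S1pr2 (0.760). Srpk3 was also among the 3 genes most like Cdh15.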

How the data were processed

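RNA from perisynaptic and extrasynaptic diaphragm was isolated with miRNeasy reagents and a DNA digestion and turned into libraries with the stranded KAPA mRNA kit, per the labels' protocols. The deposited values are raw counts per gene that the authors made with featureCounts on mm10, per the submitters' processing notes. Not given in the sources used here are the aligner, the gene annotation release and how strand was counted. Of 33076 identifiers, 33064 matched GENCODE vM21 without regard to version. The reads carry no molecular identifiers, and errors are those between mice.

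The 8 genes and the gene lists were chosen with earlier results of these data known, so counts over them are descriptions. Counts of the 8 at an unadjusted p or in DESeq2 stand beside such counts over all genes for the control age difference alone. In the other comparisons the shares printed beside them are of adjusted edgeR calls. All 8 genes are named throughout; of each other list, the 4 genes with the smallest p per genotype comparison and 2 per region comparison could be named, and the text gives a selection; Mki67 was added after its values were seen.

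From the deposited counts, genes passing filterByExpr (at least 10 counts, 15 in total) were scaled with TMM and fitted in edgeR 4.0.16 (limma 3.58.1, R 4.3.3) by quasi-likelihood, tested 2-sided with Benjamini-Hochberg adjustment over all genes tested. The SE is the absolute log2 fold change over the square root of F. One fit per region held 15 libraries and 4 group means, with 15735 perisynaptic and 15526 extrasynaptic genes and 11 residual degrees of freedom. Region differences came from a fit of 30 libraries with a term per mouse (16138 genes, 11 residual degrees of freedom), since library names tie both pieces of a mouse, whose deviations correlated at 0.0900 to 0.615. Log2 CPM for correlations used a prior count of 2. Fits were tested on simulated data. A check of the gene carried by the transgene is not reported here. Alternatives were DESeq2 1.42.0, RLE factors, no filter, a replicate block, a block of number runs, the compared groups alone, no mouse term and each mouse left out. Total-count scaling, fits within runs and count ratios were added after the data had been seen. Replicate numbers were not taken as pairs.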

Additional observations from a re-analysis of the deposited data

Results flagged for a closer look

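Each of the 8 genes was examined in its 6 groups of 4 libraries, 48 in all, for a library whose gap to the nearest of the others, over the range of the group, passed Dixon's 95% critical value. Chance flags about 1 in 20 groups, and 3 of the 48 were found. Myf5 in SBMA perisynaptic libraries at 15 weeks was 2.91 CPM in replicate 1 and 2.32 to 2.41 CPM in the others. Myf5 in control perisynaptic libraries at 26 weeks was 1.89 CPM in replicate 2 and 2.47 to 2.51 CPM in the others. Cdh15 in control perisynaptic libraries at 26 weeks was 21.8 CPM in replicate 3 and 20.3 to 20.4 CPM in the others. The call of Myf5 at 26 weeks was kept without that control mouse.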

How the results depend on the processing

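Of the 8 genes, 5 were called in perisynaptic libraries at 26 weeks, 3 with a replicate block (Myf6 at 0.48, adjusted p = 0.0632, and Cdh15 at 0.38, adjusted p = 0.0668, were lost), 0 and 1 within the lower and higher run of animal numbers, and 2 to 6 with each mouse left out. In extrasynaptic libraries at 26 weeks 5 were called, 4 and 1 within the runs and 3 to 5 with each mouse left out. The 4 of the lower run were not all among those 5. Within the lower and higher run, 0.27% and 10.2% of all perisynaptic genes were called higher, and 11.6% and 6.16% of extrasynaptic genes. For 26 minus 15 weeks in SBMA mice, 2 were called in perisynaptic libraries, 1 without the filter, 1 in a fit of the compared groups alone and 0 to 2 with each mouse left out; in extrasynaptic libraries 4, and 1 to 5 with each mouse left out. For genotype by age in extrasynaptic libraries 0 were called, 1 with DESeq2 and 0 to 1 with each mouse left out. Between the regions, 1 was called in SBMA mice at 15 weeks, 0 with total-count scaling, 0 without the mouse term (no replicate block) and 0 with each mouse left out; at 26 weeks 1, 0 with DESeq2, 0 without the mouse term and 0 to 3 with each mouse left out; in control mice at 26 weeks 0, and 1 without the filter. No called value turned its sign in the alternatives run. The replicate block also ended the call of Birc5 in extrasynaptic libraries at 26 weeks (1.05, adjusted p = 0.111). In extrasynaptic libraries at 15 weeks it ended those of Peg3, Myh8 and Stab2 (adjusted p of 0.0992, 0.0858 and 0.0535). The calls of Aurka (−0.86, adjusted p = 0.148) and Cdkn1a (−0.90, adjusted p = 0.0509) there were lost with it as well. Replicate numbers were not taken as pairs of SBMA and control mice, since not every pair correlated: the deviations of same-number mice correlated at 0.0528, 0.398, 0.304 and 0.313 in perisynaptic and at 0.161, 0.175, 0.129 and 0.00467 in extrasynaptic libraries at 26 weeks, and not above 0.0154 at 15 weeks. The replicate block and the block of runs are nested in age, so age differences could not be fitted with them. With total-count scaling, 2248 genes were called higher and 108 lower in extrasynaptic libraries at 15 weeks, in place of 86 and 104, and for 26 minus 15 weeks in SBMA mice 1178 and 158 perisynaptic in place of 369 and 252 and 1900 and 444 extrasynaptic in place of 1012 and 873. The cause of these differences was not tested. Calcr, at 7 to 52 counts per library, is limited by depth.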
